A study of Mus musculus with 9 samples.

Results

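The genes described here are 7 intracellular serpin genes of the mouse, Serpinb1a, Serpinb2, Serpinb6a, Serpinb6b, Serpinb8, Serpinb9 and Serpinb9b. They were chosen by name, with their levels and changes in these samples already known. They are 7 of the 27 clade B serpin genes in a table of 55401 genes. RNA-seq was performed on RAW264.7 cells, a macrophage line of wild-type genotype from a tumour that Abelson murine leukemia virus induced in a male mouse. The 3 groups were treated with DMSO (the solvent), with DMSO and LPS (lipopolysaccharide, a bacterial cell wall component that activates macrophages), or with LPS and skatole (LPS + Ska), an indole compound made by gut bacteria. The labels give a treatment of 24 h. Each group had 3 columns of values, numbered replicates 5, 6 and 7, and every cell came from 1 line. Nothing in the labels says that the replicates were separate cultures, so the p-values given measure only the spread between these columns. The comparison of LPS with DMSO asks what the stimulus does, and the comparison of LPS + Ska with LPS asks what skatole does in stimulated cells.

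Serpins are protease inhibitors that act once. The target protease cuts an exposed loop of the serpin, the serpin changes shape, and the protease stays trapped in a covalent complex. Most serpins are secreted, but clade B members lack a classical signal peptide and stay mainly in the cytosol and nucleus, where several of them protect leukocytes from their own granule and lysosomal proteases. In the mouse the clade expanded into gene clusters, so that a single human gene can have several mouse counterparts.

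All values are TPM (transcripts scaled to a fixed total in each column), which correct for transcript length, so that levels of different genes may be compared. The columns of both treated groups were not independent. Replicate 5 equalled the mean of replicates 6 and 7, within 1e-05 TPM, in 17950 of 17950 genes of the LPS group that had both above 0, and in 17658 of 17658 genes of the LPS + Ska group. In DMSO this held for 10 of 16674 genes. Values listed at 0 were left out of these counts. Each treated group therefore holds at most 2 independent values a gene, and an SD over its 3 columns is not that of 3 measurements. Where 1 of replicates 6 and 7 was 0, the other reached 3.002 times replicate 5 in LPS and 3.0 times in LPS + Ska. As an alternative, the 3 columns of each treated group were replaced by a pair of recovered values. These were replicate 5 plus and minus 0.5 times its difference from replicate 6 or 7. For Serpinb2 in LPS the pair was 9.99 and 8.22 TPM, while the 3 columns had an SD of 1.78 TPM. Sequencing depth cannot be read from TPM and is unknown. All 8 macrophage markers examined had a mean of at least 1 TPM, with summed levels of 7133 to 7549 TPM in LPS and 12020 to 13700 TPM in the other groups. Lyz2 carried most of this sum, and without it the markers summed to 2914 to 2922 TPM in LPS, 3152 to 3314 TPM in DMSO and 3493 to 3564 TPM in LPS + Ska. Summed markers of T, B, NK, epithelial, endothelial and fibroblast cells reached at most 0.672 TPM, and those of neutrophils reached 3.07 TPM. The macrophage sum was lowest in LPS, and its part in the results below was not tested.

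A single gene carried most of the serpin RNA. The summed level of the 27 clade B genes was 173 to 211 TPM in DMSO, 188 to 199 TPM in LPS and 195 to 198 TPM in LPS + Ska, and these ranges overlapped. Serpinb6a made up 68.9 to 72.5% of that sum in DMSO, 50.9 to 53.0% in LPS and 65.3 to 71.1% in LPS + Ska. The 7 listed genes together made up 92.1 to 96.2% of it in every column. Of the 20 other clade B genes, 14 were listed at 0 in all 9 columns, and 5 had a mean of at least 0.1 TPM. In each group Serpinb6a stood highest, followed by Serpinb8. Below them the order differed between groups. It was Serpinb6b, then Serpinb9 in DMSO, and Serpinb6b, Serpinb2 and Serpinb9 in LPS. In LPS + Ska the columns of Serpinb2 and Serpinb9 overlapped, and Serpinb6b lay below both. Serpinb9b and Serpinb1a were lowest in each treated group, and in DMSO both were near 0 together with Serpinb2, which was listed at 0.

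**Figure D1:**
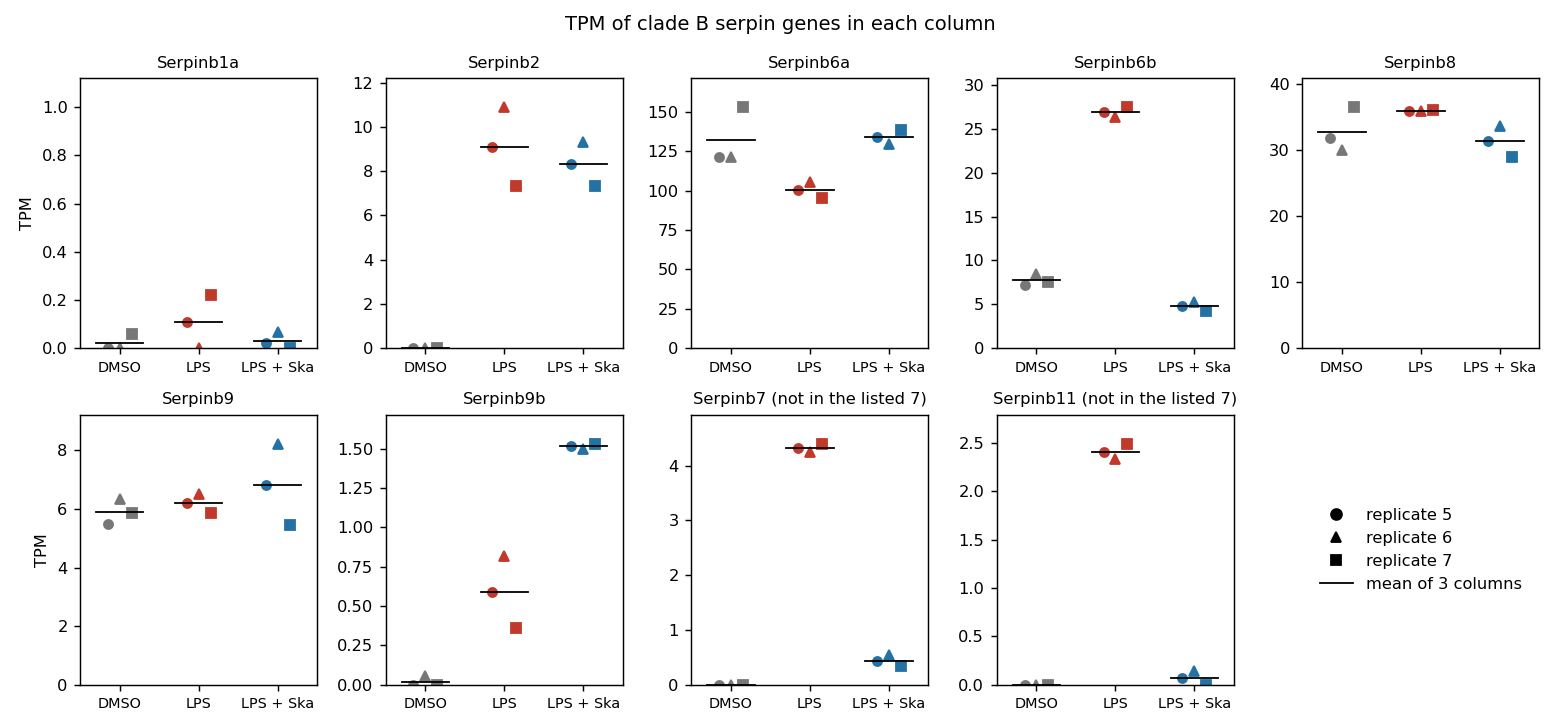
TPM (y axis, from 0, with a scale of its own in each panel) of the 7 listed serpin genes and of Serpinb7 and Serpinb11 in DMSO, LPS and LPS + Ska; each marker is 1 column (replicate 5, 6 or 7) and each line the mean of 3 columns. Serpinb6b stands at 26.4 to 27.5 TPM in LPS and at 4.23 to 8.44 TPM in the other groups, while Serpinb2 is listed at 0 in DMSO only.

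A gene was called where limma's adjusted p was below 0.05 and the fold was above 1.5 or below 0.67. Of the 12819 genes with a mean of at least 1 TPM, 12.7% were called higher and 20.0% lower in LPS than in DMSO. In LPS + Ska compared with LPS, 3.35% were called higher and 6.14% lower. In LPS + Ska compared with DMSO, 11.4% were called higher and 25.3% lower. Of the 7 listed genes, 5 passed the filter on level. Their calls were 2 higher and 0 lower in LPS compared with DMSO, 0 higher and 1 lower in LPS + Ska compared with LPS, and 1 higher and 1 lower in LPS + Ska compared with DMSO. Their median log2 fold changes were 0.14, -0.11 and 0.03 in these comparisons, beside medians of -0.07, -0.10 and -0.18 over all genes tested. Since the genes were chosen with these values known, no p is given for them and nothing is read from their counts. The comparisons share groups, so their values are set side by side and not correlated.

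Rescaling the columns by median-ratio size factors moved the median of all genes. In LPS + Ska compared with DMSO the median moved from -0.18 to -0.01. The share of calls that were higher went from 35.3 to 52.0% in LPS + Ska compared with LPS, and from 31.0 to 48.4% in LPS + Ska compared with DMSO. It moved from 38.9 to 47.8% in LPS compared with DMSO. The log2 fold changes below are of TPM as deposited, and those of the listed genes kept their sign under the rescaling except that of Serpinb8 in LPS + Ska compared with DMSO.

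Serpinb6b (ENSMUSG00000042842) was called both higher with LPS and lower with skatole, the 1 listed gene of which this held. It is a mouse paralogue of the human gene SERPINB6, and its product has been described as an inhibitor of granzyme A. The columns read 7.21, 8.44 and 7.51 TPM in DMSO. They rose to 26.9, 26.4 and 27.5 TPM in LPS. With skatole they were 4.75, 5.27 and 4.23 TPM. No 2 groups overlapped, and LPS + Ska lay below DMSO. The log2 fold change on log2(TPM + 1) was 1.68 (SE 0.10) in LPS compared with DMSO and -2.28 (SE 0.10) in LPS + Ska compared with LPS, and both were called in all 20 fits, which are the fit as designed and 19 with 1 setting changed, the recovered values and stricter or looser call rules among them. The change of LPS + Ska against DMSO was -0.60. This call was lost with median-ratio scaling (-0.45), without DMSO replicate 6 (-0.54), without LPS + Ska replicate 7 (-0.54) and with a fold limit of 2. All fits reuse the same columns of a gene chosen with these values known, so they describe the settings and add no support.

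Serpinb6a (ENSMUSG00000060147), the closest mouse relative of human SERPINB6, an inhibitor of cathepsin G and of trypsin-like proteases, ran the other way by a smaller amount. The DMSO columns were 121, 121 and 153 TPM. The LPS columns were 100.4, 105 and 95.6 TPM, all below DMSO. The LPS + Ska columns were 134, 129 and 139 TPM, all above LPS and within the range of DMSO. The log2 fold changes were -0.38 (SE 0.09) in LPS compared with DMSO and 0.41 (SE 0.09) in LPS + Ska compared with LPS, both inside the fold limits, so that Serpinb6a was not called. With median-ratio scaling they were -0.30 and 0.51, and without DMSO replicate 7 the former was -0.27. The ratio of Serpinb6a to Serpinb6b, which no scaling of a column alters, was 14.4 to 20.4 in DMSO, 3.48 to 4.0 in LPS and 24.5 to 32.8 in LPS + Ska. The share of Serpinb6b in the clade B sum was 3.56 to 4.79% in DMSO, 13.3 to 14.6% in LPS and 2.17 to 2.66% in LPS + Ska. In these bulk samples fewer cells expressing a gene and less RNA per cell cannot be told apart.

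Serpinb6a and Serpinb6b are close copies, and this bears on how reads are assigned. Their coding sequences were 86.2% identical over 1128 aligned bases. Of the stretches of 50 bases in the transcripts of Serpinb6b, 3.07% also occurred in another gene (Serpinb6a, Serpinb6c or Gm8436). For Serpinb6a the share was 25.65%, and the other genes included Ripk1 and 1110046J04Rik, which overlap it on the opposite strand. Nqo2 also overlaps Serpinb6a on the opposite strand. These neighbours reached 31.6 TPM (Nqo2), 25.1 TPM (Ripk1) and 2.95 TPM (1110046J04Rik) in their highest column, below the lowest value of Serpinb6a. How reads shared between genes were counted is not given in the sources used here, so the level of Serpinb6a is uncertain by the reads it shares.

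Serpinb2 (ENSMUSG00000062345) encodes plasminogen activator inhibitor type 2, which inhibits urokinase and is a known product of activated macrophages. It was listed at 0 in all 3 DMSO columns. In LPS it was 9.11, 10.9 and 7.33 TPM, and in LPS + Ska it was 8.31, 9.30 and 7.31 TPM. The treated groups overlapped, and both lay apart from DMSO. On log2(TPM + 1) the difference from DMSO was 3.32 (SE 0.15) in LPS and 3.21 (SE 0.15) in LPS + Ska. Against a group listed at 0 this size is set by the pseudocount, and with 0.1 in place of 1 it was 6.51 and 6.39. It was called higher than DMSO in all 20 fits in both groups. Serpinb2 passed the filter on level only through the treated groups, where it is high, so these calls are a description. Between LPS + Ska and LPS the change was -0.11 (SE 0.15), and no fit called it. No stretch of 50 bases of Serpinb2 was shared with another gene. Serpinb10, which overlaps it on the same strand, reached 0.339 TPM.

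**Figure D2:**
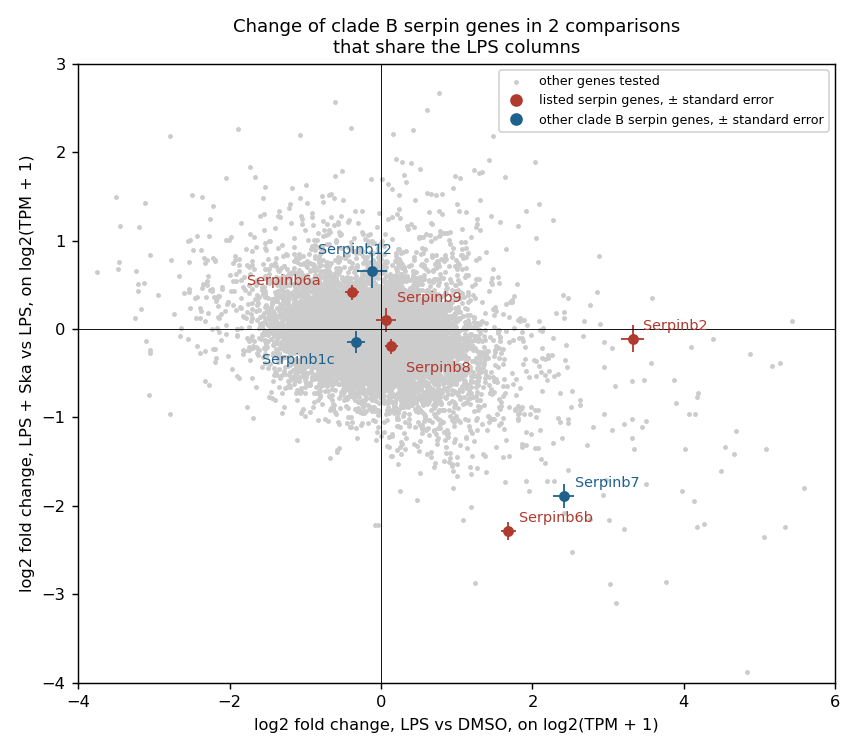
Log2 fold change on log2(TPM + 1) in LPS vs DMSO (x axis) and in LPS + Ska vs LPS (y axis) for 12819 genes (grey; 2 lie beyond the axes), with the listed serpin genes in red and other clade B serpin genes in blue, bars being standard errors. Both axes use the LPS columns, with opposite sign; Serpinb6b (1.68, -2.28) and Serpinb7 (2.41, -1.89) lie at the lower right, and Serpinb2 (3.32, -0.11) lies to the right near 0 on the y axis.

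Serpinb8 (ENSMUSG00000026315) encodes an inhibitor of furin and of trypsin-like proteases. Its columns were 31.9, 30.0 and 36.5 TPM in DMSO, 36.0, 35.9 and 36.1 TPM in LPS, and 31.3, 33.6 and 29.1 TPM in LPS + Ska. The DMSO range spanned the LPS range and overlapped that of LPS + Ska. The log2 fold changes were 0.14 and -0.20 (SE 0.08 each) in LPS compared with DMSO and in LPS + Ska compared with LPS. Against DMSO, LPS + Ska stood at -0.06, which became 0.12 with median-ratio scaling. No fit called Serpinb8 in any comparison.

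Serpinb9 (ENSMUSG00000045827) encodes the inhibitor of granzyme B that protects cytotoxic and antigen-presenting cells. Its columns were 5.48, 6.34 and 5.86 TPM in DMSO, 6.19, 6.52 and 5.87 TPM in LPS, and 6.83, 8.21 and 5.44 TPM in LPS + Ska. All groups overlapped. The log2 fold changes were 0.06 and 0.11 (SE 0.14 each) in the same comparisons, and no fit called it.

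Serpinb9b (ENSMUSG00000021403), a close relative whose product has been described as an inhibitor of granzyme M, was near the floor of the table. It was listed at 0, 0.0579 and 0 TPM in DMSO. It read 0.589, 0.819 and 0.359 TPM in LPS, and 1.51, 1.5 and 1.53 TPM in LPS + Ska. The groups did not overlap, and LPS + Ska was highest. With a mean under 1 TPM it did not enter the fit as designed. Without the filter on level its changes were 0.63 in LPS compared with DMSO and 0.67 in LPS + Ska compared with LPS. The coding sequences of Serpinb9 and Serpinb9b were 86.2% identical. The share of stretches of 50 bases found elsewhere was 5.62% for Serpinb9b (Serpinb9, Gm7242 and the antisense gene Gm36099) and 0.38% for Serpinb9.

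Serpinb1a (ENSMUSG00000044734), a mouse counterpart of the human inhibitor of neutrophil elastase, proteinase 3 and cathepsin G, was at or near 0 throughout. Its highest column was 0.222 TPM, in LPS, and 4 of the 9 columns were listed at 0. The recovered pair in LPS was 0.0513 and 0.165 TPM. No change can be read from such values. Its paralogue Serpinb1c, which was not among the listed genes, was higher, at 4.70 ± 0.470 TPM in DMSO, 3.52 ± 0.130 TPM in LPS and 3.10 ± 0.424 TPM in LPS + Ska (SD, n = 3 columns). Serpinb1c was not called in any comparison with the settings as designed. The columns of Serpinb1b ranged from 0 to 1.87 TPM within LPS + Ska alone, where the recovered pair was 1.32 and 0.230 TPM. The coding sequence of Serpinb1a was 90.4% identical to that of Serpinb1b and 89.7% to that of Serpinb1c.

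Of the other clade B genes, Serpinb7 and Serpinb11 were high only in LPS among the 3 groups. Serpinb7, also called megsin, was listed at 0 in every DMSO column. It read 4.32, 4.25 and 4.40 TPM in LPS and 0.441, 0.535 and 0.346 TPM in LPS + Ska. The change in LPS + Ska compared with LPS was -1.89 on log2(TPM + 1) (SE 0.14). Serpinb7 passed the filter on level only through LPS, the group where it is high, so its values are a description and no p is given. Serpinb11 was listed at 0 in DMSO, at 2.41, 2.33 and 2.49 TPM in LPS, and at 0.0710, 0.140 and 0.00224 TPM in LPS + Ska. Serpinb11 fell below the filter, and in the fit without it the change in LPS + Ska compared with LPS was -1.67. Serpinb12, a trypsin inhibitor, read 2.32, 4.64 and 3.09 TPM in DMSO, 2.94, 2.30 and 3.58 TPM in LPS, and 5.19, 5.69 and 4.69 TPM in LPS + Ska. Every LPS + Ska column of Serpinb12 lay above every other column (0.66 against LPS, SE 0.20, limma adjusted p = 0.037). That call stood in 10 of 19 fits. The adjusted p of Serpinb12 was 0.104 with the recovered values and 0.0589 with the replicate number as a block, and without a single LPS or LPS + Ska column it ran up to 0.12.

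The genes lie in 2 clusters. On chromosome 1 of GRCm38 (mm10), 12 clade B genes span 749 kb. Serpinb11 (chr1:107361198-107380475), Serpinb7 (chr1:107399655-107452689) and Serpinb2 (chr1:107511423-107535478) follow each other on the plus strand with gaps of 19.2 and 58.7 kb and no other clade B gene between them. These 3 genes were all listed at 0 in DMSO and above 0 in every LPS column. They parted with skatole, where Serpinb2 was 7.31 to 9.30 TPM and the other two were 0.00224 to 0.535 TPM. Serpinb8 (chr1:107590006-107610484, plus strand) closes the cluster. On chromosome 13, 15 clade B genes span 1161 kb. Serpinb1a (chr13:32842092-32851185, minus strand) opens the cluster. Serpinb6b (chr13:32965209-32979067), Serpinb9 (chr13:33003250-33017957) and Serpinb9b (chr13:33027416-33041884) follow each other on the plus strand. Each of these 3 neighbours had a different pattern, with Serpinb6b highest in LPS, Serpinb9b highest in LPS + Ska and Serpinb9 overlapping in all groups. Serpinb6a (chr13:33917918-34002794, minus strand) lies at the far end of the cluster, starting 1076 kb from its first gene, while Serpinb6b starts at 123 kb. The 7 listed genes, Serpinb7 and Serpinb11 are annotated as protein-coding.

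**Figure D3:**
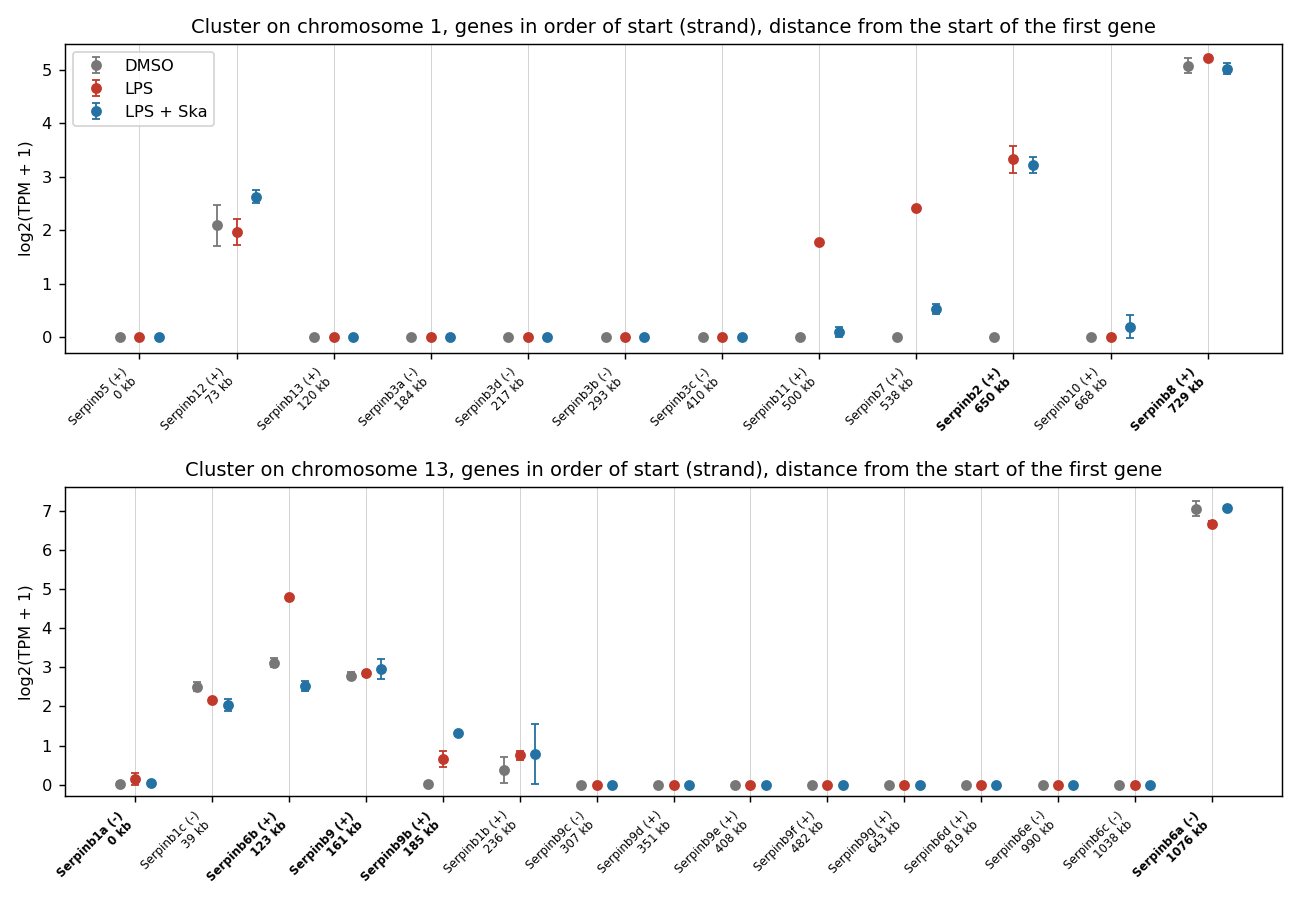
Mean log2(TPM + 1) of each clade B serpin gene (y axis; bars are the SD over 3 columns) in the order of the genes along the clusters on chromosome 1 (top) and chromosome 13 (bottom), with the strand and the distance in kb from the start of the first gene; listed genes are in bold. Serpinb11, Serpinb7 and Serpinb2 stand at 0 in DMSO, and only Serpinb2 stays up in LPS + Ska.

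Promoter sequence was set beside these patterns because genes of the same cluster responded differently. The sequences upstream of the RefSeq starts (GRCm38.p6, plus strand, 5′ to 3′) are shown for Serpinb2, which was up with and without skatole, for Serpinb7, which was up in LPS and low with skatole, for Serpinb8, which did not pass the test, and for Serpinb6b, which was highest in LPS. Capitals mark the letters TGANTCA, bound by AP-1, a factor downstream of MAP kinases. The stretches are chr1:107511173-107511422 (Serpinb2), chr1:107422439-107422688 (Serpinb7, between annotated exons of the longer gene model), chr1:107589756-107590005 (Serpinb8) and chr13:32965011-32965208 (Serpinb6b, up to the annotated start). The RefSeq start of Serpinb6b lies after this annotated start.
Serpinb2: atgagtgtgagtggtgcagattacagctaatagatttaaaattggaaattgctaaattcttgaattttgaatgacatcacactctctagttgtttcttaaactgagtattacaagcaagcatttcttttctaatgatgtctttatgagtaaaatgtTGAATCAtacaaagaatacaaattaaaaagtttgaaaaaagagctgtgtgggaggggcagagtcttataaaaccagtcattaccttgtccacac
Serpinb7: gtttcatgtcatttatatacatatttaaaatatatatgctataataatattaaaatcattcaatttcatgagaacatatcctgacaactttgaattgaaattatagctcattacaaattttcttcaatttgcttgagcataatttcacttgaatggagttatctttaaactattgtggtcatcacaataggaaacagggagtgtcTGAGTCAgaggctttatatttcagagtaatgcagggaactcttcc
Serpinb8: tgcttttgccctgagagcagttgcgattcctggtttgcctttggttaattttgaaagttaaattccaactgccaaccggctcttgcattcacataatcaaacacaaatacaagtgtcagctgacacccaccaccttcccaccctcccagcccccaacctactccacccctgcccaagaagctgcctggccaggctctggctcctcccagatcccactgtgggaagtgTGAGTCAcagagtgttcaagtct
Serpinb6b: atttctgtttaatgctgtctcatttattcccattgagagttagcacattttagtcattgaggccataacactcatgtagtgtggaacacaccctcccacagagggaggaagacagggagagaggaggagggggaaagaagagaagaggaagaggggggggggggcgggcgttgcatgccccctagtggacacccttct

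The letters TGANTCA, which read the same on both strands, began 94 bases before the start of Serpinb2, 45 before that of Serpinb7 and 23 before that of Serpinb8. They occurred in 7.81% of all 32851 RefSeq promoter windows of 300 bases (250 before and 50 after the start) and in at least 1 window of 8.97% of the 27025 genes with one. Of the listed genes 6 had a window, Serpinb2 and Serpinb6a had 2, and the letters were found in 2 of the 6. Serpinb1a had none. Among the other clade B genes, Serpinb11 and Serpinb12 also held them. The genes with the letters therefore include Serpinb2, Serpinb7 and Serpinb11, which were all listed at 0 in DMSO, and also Serpinb8, which no fit called. They include Serpinb12 as well, which read 2.32 to 4.64 TPM in DMSO and which no fit called in LPS compared with DMSO. GGNNTTTCC, the NF-kB letters, was found in 0 of 6 listed genes, in Serpinb12, and in 6.62% of all genes. GAAANNGAA, the core of the interferon-stimulated response element, was found in 2 of 6 (Serpinb6a and Serpinb9), in Serpinb7, and in 9.76% of all genes. TTCNNNGAA, the letters bound by STAT factors, was found in 2 of 6 (Serpinb2 and Serpinb6a) and in 9.55%. TGACNNNGC, the antioxidant response element, was found in 1 of 6 (Serpinb6a), in Serpinb12, and in 13.99%, and GCGTG, the xenobiotic response element, in 1 of 6 (Serpinb6a) and in 35.15%. Both strands were searched, in all genes and in the clade B genes with a mean of at least 0.1 TPM. The windows of Serpinb6b and Serpinb9b held none of these letters. A match describes the letters in a window, not a bound site, and the absence of one says nothing of a factor acting elsewhere.

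The proteases that these serpins are known to trap differed widely in level. Elane, Ctsg, Gzma and Gzmb, which encode neutrophil elastase, cathepsin G and granzymes A and B, were listed at 0 in every column. Prtn3 (proteinase 3) was 0, 0.686 and 0.625 TPM in DMSO and listed at 0 in all other columns. Gzmm (granzyme M) was 0.714 to 1.48 TPM in DMSO, 0.0826 to 0.10 TPM in LPS and 0.212 to 0.401 TPM in LPS + Ska, below the filter. None of the 13 genes in the list of granzymes and neutrophil serine proteases had a mean of at least 1 TPM.

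The targets of Serpinb2 and Serpinb8 were expressed. Plau, which encodes urokinase, was 54.1 ± 4.52 TPM in DMSO, 93.1 ± 3.67 TPM in LPS and 52.7 ± 3.85 TPM in LPS + Ska (SD, n = 3 columns). Plau rose with LPS by 0.77 on log2(TPM + 1) (limma adjusted p = 3.2e-05) and was lower with skatole by -0.81 (limma adjusted p = 1.9e-04). Every LPS column of Plau lay above every column of the other groups, but each treated group holds at most 2 independent values. Serpinb2, in contrast, overlapped between LPS and LPS + Ska. Plaur, the urokinase receptor, rose with LPS by 0.80 (limma adjusted p = 2.7e-05) and stood at 80.5 ± 4.48 TPM in LPS and 81.8 ± 7.08 TPM in LPS + Ska. Plat, tissue plasminogen activator, reached at most 0.114 TPM. Of 8 plasminogen activation genes, 5 were tested, with 2 called higher (Plau and Plaur) and 1 lower (Anxa2, a plasminogen-binding annexin, -0.75) in LPS compared with DMSO. In LPS + Ska compared with LPS, Plau was the 1 gene of these 5 that was called. Over all genes tested, 12.7% were called higher and 20.0% lower in the former comparison, and 3.35% and 6.14% in the latter.

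Furin, the convertase that Serpinb8 inhibits, was 34.8 ± 3.08 TPM in DMSO, 23.9 ± 2.40 TPM in LPS and 17.2 ± 0.910 TPM in LPS + Ska. The columns of the 3 groups did not overlap. Neither step passed the fold limit (-0.52 and -0.45), while Furin was called lower in LPS + Ska than in DMSO (-0.97, limma adjusted p = 2.0e-05). Of the 4 convertase genes tested, out of 9, 1 was called in LPS compared with DMSO (Pcsk4, -0.87), none in LPS + Ska compared with LPS, and 3 lower in LPS + Ska than in DMSO (Furin, Mbtps1 and Pcsk7). Over all genes tested, 20.0% were called lower in LPS than in DMSO and 25.3% in LPS + Ska than in DMSO. With median-ratio scaling Mbtps1 (-0.45) and Pcsk7 (-0.45) were no longer called. The call of Mbtps1 was also lost without LPS + Ska replicate 7 (-0.56), and that of Pcsk7 without DMSO replicate 6 (-0.55).

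**Figure D4:**
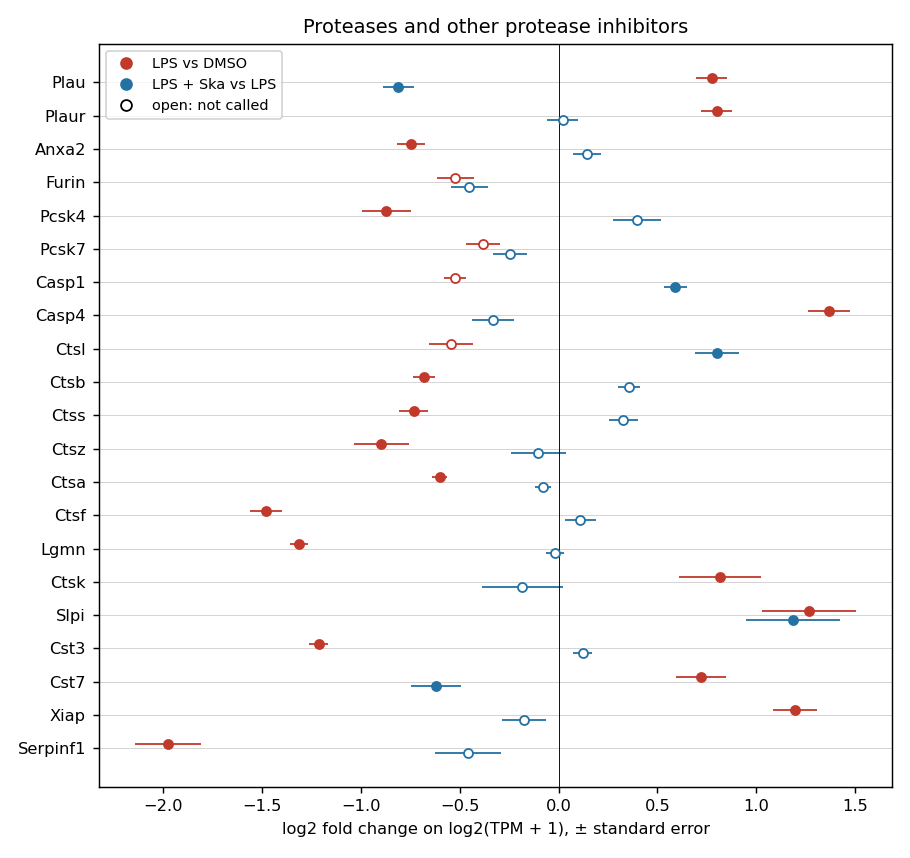
Log2 fold change on log2(TPM + 1) with its standard error (x axis) of proteases and other protease inhibitors in LPS vs DMSO (red) and LPS + Ska vs LPS (blue); filled points are called and open points are not. Plau lies at 0.77 and -0.81, and Ctsl is filled in LPS + Ska vs LPS, at 0.80.

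Of 14 genes in a list of cathepsins and legumain, 12 were tested. Of these 12, 6 were called lower and 1 higher in LPS compared with DMSO, beside 20.0% and 12.7% of all genes tested. The median over the 12 was -0.57. The lower ones included Ctsf (-1.48), Lgmn, the asparaginyl endopeptidase legumain (-1.31), Ctsz (-0.90) and Ctss (-0.73). Ctsk, best known from osteoclasts, was the higher one (0.82), and it passed the filter through the treated groups. With skatole 1 was called, Ctsl, which rose by 0.80 over LPS (limma adjusted p = 0.0011), from 184 ± 20.3 to 320 ± 27.9 TPM. Over all genes tested, 3.35% were called higher in that comparison.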

How the data were processed

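RNA of RAW264.7 cells was sequenced by the authors, who deposited TPM for 55401 genes in 9 columns. The kit was NEBNext Ultra RNA. The submitters' processing notes name fastp 0.20.1, HISAT2 2.2.1, StringTie 2.0 and mm10, and the annotation is not given in the sources used here. TPM corrects for transcript length and total, so it keeps no depth, and no counting interval could be given. The methods of the study give a longer treatment than the labels, while its results text and a figure legend give 24 h, as the labels do. The time of the labels is used.

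Symbols were matched by Ensembl identifier (55141 of 55401). Genes with a mean of at least 1 TPM were tested with limma 3.58.1 (R 4.3.3) on log2(TPM + 1), with an intensity trend, all 9 columns in 1 fit and Benjamini-Hochberg adjustment over 12819 genes. Recovered values, an alternative, replace the tied columns by replicate 5 plus and minus 0.5 times the difference between it and replicate 6 or 7. Other alternatives changed the pseudocount, filter, scaling, groups, trend, call rule, block or columns. The serpins and lists of proteases, inhibitors, markers and motifs were chosen with earlier results of these data known, and some genes are not reported here and were left out of the lists. Named were the 7 listed genes, clade B genes with a mean of at least 0.1 TPM, up to 4 called genes a list and comparison, known target proteases, and the 2 genes nearest to each tested member. Positions, overlaps, coding identity (Biopython 1.88, in place of the planned protein alignment) and shared stretches of 50 bases came from GENCODE M21, and promoters from RefSeq. Same-numbered replicates correlated at -0.00633 to 0.0548 between DMSO and LPS, -0.032 to 0.0801 between DMSO and LPS + Ska, and 0.128 to 0.384 between LPS and LPS + Ska, where the columns are tied. LPS replicate 7 and LPS + Ska replicate 5, of unlike number, correlated at 0.137. Because of the tie, these values cannot tell whether the numbers pair the columns of the latter groups. The block ended the call of Serpinb12 in LPS + Ska compared with LPS and no other call named in the text.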

Additional observations from a re-analysis of the deposited data

How the results depend on the processing

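At most 2 independent values stand behind each treated group and the depth is unknown, so small differences of low genes are uncertain. The calls of Serpinb2, and those of Serpinb6b in LPS compared with DMSO and in LPS + Ska compared with LPS, held in all 20 fits. These fits reuse the same columns, and the genes were chosen with these values known, so this describes the settings and adds no support. No called result changed its direction. With an adjusted p alone, the calls were 3354 higher and 4380 lower in LPS compared with DMSO, 1139 and 2524 in LPS + Ska compared with LPS, and 2915 and 5201 in LPS + Ska compared with DMSO. With a fold limit of 2 they were 547 and 928, 142 and 199, and 519 and 1234. A minimum of 5 TPM left 516 lower in LPS + Ska compared with LPS. With an adjusted p alone, 1 listed gene was called lower in LPS compared with DMSO and 1 higher in LPS + Ska compared with LPS, both Serpinb6a. Without the filter Serpinb9b, which lay near the floor, was added to the listed genes called higher in each comparison, and nothing is read from this. In LPS + Ska compared with DMSO, the number of listed genes called lower was 0 with median-ratio scaling and with a fold limit of 2. It ranged from 0 to 1 when a column was left out, being 0 without DMSO replicate 6 or without LPS + Ska replicate 7. The other serpin, protease and inhibitor genes tested included 12 cathepsin and legumain genes, 9 protease inhibitors and 7 caspases. The rest were 5 plasminogen activation genes, 4 convertases, 3 clade B serpins and 1 secreted serpin. For these genes, an adjusted p alone gave 23 lower in LPS compared with DMSO. It gave 8 higher and 9 lower in LPS + Ska compared with LPS, and 8 higher and 19 lower in LPS + Ska compared with DMSO. A fold limit of 2 gave 4 higher and 4 lower, 1 higher and 1 lower, and 3 higher and 4 lower in these comparisons. Median-ratio scaling gave 2295 of all genes tested lower in LPS + Ska compared with DMSO, beside 3243 as designed. Of the other serpin, protease and inhibitor genes it gave 7 lower there. As designed, 5 cathepsin or legumain genes, 3 convertases, 1 secreted serpin, 1 plasminogen activation gene and 1 protease inhibitor were lower there. Nothing is read from these counts of the other serpin, protease and inhibitor genes. Leaving out a column gave 2 to 4 of these genes higher in LPS + Ska compared with LPS, and the 2 came without LPS + Ska replicate 6, where Serpinb12 and Casp1 were no longer called. The replicate block gave 427 higher and 771 lower in LPS + Ska compared with LPS. Of the named calls, the block ended only that of Serpinb12 in LPS + Ska against LPS (limma adjusted p = 0.0589). The motif counts were the same in the 250 bases before the start alone. Beyond adding or ending calls by their own limits, the cause of these shifts was not tested.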

Other observations

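Other protease inhibitors were also measured. Of 9 such genes tested, 3 were called higher and 1 lower in LPS compared with DMSO. In LPS + Ska compared with LPS, 1 was called higher and 1 lower. Over all genes tested, 12.7% were called higher and 20.0% lower in the former comparison, and 3.35% and 6.14% in the latter. Slpi, the secretory leukocyte protease inhibitor, which blocks neutrophil elastase and cathepsin G, was 3.57 ± 1.30, 9.81 ± 2.12 and 23.5 ± 4.30 TPM in DMSO, LPS and LPS + Ska (SD, n = 3 columns), and it rose at both steps (1.27, limma adjusted p = 0.0014, and 1.18, limma adjusted p = 0.0064). Cst7, the gene for cystatin F, rose with LPS by 0.72 and was lower with skatole (-0.62, limma adjusted p = 0.0068). The latter call of Cst7 was lost with median-ratio scaling (-0.53) and without LPS replicate 7 (-0.49). Cst3, which encodes cystatin C, fell with LPS (-1.21), and Xiap, an inhibitor of caspases, rose (1.20).

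Of 7 tested caspases, out of 9, 1 was called higher (Casp4, 1.37) in LPS compared with DMSO, beside 12.7% of all genes tested. Casp1, which activates interleukin-1β, was 76.5 ± 3.41, 53.0 ± 1.63 and 80.3 ± 2.23 TPM in DMSO, LPS and LPS + Ska. It was called in LPS + Ska compared with LPS (0.59, limma adjusted p = 1.7e-04), but not without LPS replicate 7 (0.57) or without LPS + Ska replicate 6 (0.57). Of 34 secreted serpin genes 1 passed the filter, Serpinf1. It passed only through DMSO, the group where it is high, with 6.78 ± 0.891 TPM there, 0.974 ± 0.0309 TPM in LPS and 0.455 ± 0.271 TPM in LPS + Ska, so these values are a description.

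The genes nearest to each tested serpin were found by the distance between their log2 fold changes in LPS compared with DMSO and in LPS + Ska compared with LPS. For Serpinb2 they were Ccl4 (distance 0.286), a chemokine gene, and Car2 (0.372). For Serpinb6b they were Mir5618 (0.524) and Ifi211 (0.560), an interferon-inducible gene. For Serpinb6a they were E030030I06Rik (0.0052) and Psmg3 (0.014), for Serpinb8 Mthfd1l (0.0032) and Bard1 (0.0043), and for Serpinb9 Asb1 (0.0067) and Ppp2cb (0.0077). Neighbours of Serpinb2 and Serpinb6b were farther away than those of the other 3 serpins. Such a distance depends on how many genes change by a similar amount, so nothing is read from this order.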
